A study of Mus musculus with 2 samples.

Results

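Cdc42, Enah, Clta, Cltb, Dnm2, Ncam1, App and Aplp2, which are known for exons that neurons splice differently from other cells, were followed in mouse forebrain at embryonic day 11.5. These 8 of 43346 gene rows were chosen by name and not by a cutoff on any measured value, though earlier results of these data were known. Their symbols mapped to 51 of 103639 transcript rows. The tissue was forebrain of healthy embryos of the strain B6NCrl, of both sexes and with no treatment, and there is one group of 2 replicate libraries. Forebrains of 109 embryos were pooled for replicate 1 and those of 88 for replicate 2. The input of a library was as much RNA as 1 cell holds, amplified by a SmartSeq protocol, and each pool gave 1 library, so spread between pools and spread from amplification cannot be told apart. The libraries held 28639678 and 28948074 expected counts. With one group there was no comparison of conditions and no p-value. A pool of whole forebrain also mixes progenitors, young neurons and other cells, so more neurons and more exon use per neuron cannot be told apart here.

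Alternative splicing lets one gene make different proteins in different cells. In the nervous system, splicing factors such as Ptbp1, which is high in progenitors and holds many neuronal exons out, give way to Ptbp2, Rbfox, Nova, Elavl and Srrm4 proteins as neurons mature. The members serve the cytoskeleton (Cdc42, Enah), the clathrin coat and its scission (Clta, Cltb, Dnm2), adhesion (Ncam1) and the amyloid precursor family (App, Aplp2). At this stage dividing progenitors are abundant in the forebrain wall and the earliest neurons are being born.

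The exons that the results turn on are printed with capitals for the alternative exon and lower case for up to 12 neighbouring bases of its transcript on each side, 5′ to 3′, as GENCODE release M21 gives them on mm10. Coordinates are those of the capitals. The alternative last exons of Cdc42 are shown as coding part with stop codon, because they set the end of the protein. Over their 90 bases they were identical at 59 positions.
Cdc42 upstream last exon, chr4:137322530-137322619, minus strand: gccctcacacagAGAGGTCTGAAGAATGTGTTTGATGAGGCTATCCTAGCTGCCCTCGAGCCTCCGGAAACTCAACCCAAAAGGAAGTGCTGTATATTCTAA
Cdc42 downstream last exon, chr4:137321103-137321192, minus strand: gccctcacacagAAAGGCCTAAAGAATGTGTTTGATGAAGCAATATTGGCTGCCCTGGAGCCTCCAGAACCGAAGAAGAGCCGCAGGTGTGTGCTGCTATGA

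The inserts of the clathrin light chains are shown because the models that hold them had opposite shares, none of the counts in Clta and most of the TPM in Cltb. The longer Clta insert and the Cltb insert both have 54 bases and were identical at 37 of them (68.5%). These inserts and the shorter Clta insert of 36 bases keep the reading frame.
Clta longer insert, chr4:44030215-44030268, plus strand: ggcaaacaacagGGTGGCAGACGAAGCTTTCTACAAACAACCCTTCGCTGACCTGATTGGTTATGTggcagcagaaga
Clta shorter insert, chr4:44031400-44031435, plus strand: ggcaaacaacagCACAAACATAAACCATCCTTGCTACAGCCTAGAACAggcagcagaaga
Cltb insert, chr13:54597026-54597079, minus strand: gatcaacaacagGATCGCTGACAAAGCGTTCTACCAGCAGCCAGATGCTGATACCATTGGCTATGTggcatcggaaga

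The Kunitz exons of App and Aplp2 encode a protease inhibitor domain, and each has 168 bases, identical at 114 (67.9%). The smaller Aplp2 exon of 36 bases lies near the membrane-spanning part and is shown because the measured transcripts hold either it or the Kunitz exon.
App Kunitz exon, chr16:85043576-85043743, minus strand: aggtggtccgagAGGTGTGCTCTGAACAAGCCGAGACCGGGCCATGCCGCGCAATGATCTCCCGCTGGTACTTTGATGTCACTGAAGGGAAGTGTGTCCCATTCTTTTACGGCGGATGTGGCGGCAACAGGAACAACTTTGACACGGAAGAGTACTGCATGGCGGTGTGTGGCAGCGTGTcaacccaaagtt
Aplp2 Kunitz exon, chr9:31167561-31167728, minus strand: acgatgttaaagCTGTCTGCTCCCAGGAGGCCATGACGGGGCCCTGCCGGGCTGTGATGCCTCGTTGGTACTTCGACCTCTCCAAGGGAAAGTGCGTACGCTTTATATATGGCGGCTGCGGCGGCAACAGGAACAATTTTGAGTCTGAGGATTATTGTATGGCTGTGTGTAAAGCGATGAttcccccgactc
Aplp2 exon near the membrane, chr9:31156190-31156225, minus strand: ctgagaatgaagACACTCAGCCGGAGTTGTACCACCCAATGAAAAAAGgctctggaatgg

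The exchangeable middle exons of Dnm2 have 139 bases each, identical at 95 (68.3%). A transcript holds one or the other, and as 139 is not a multiple of 3, holding both or neither would shift the frame.
Dnm2 upstream exon, chr9:21478899-21479037, plus strand: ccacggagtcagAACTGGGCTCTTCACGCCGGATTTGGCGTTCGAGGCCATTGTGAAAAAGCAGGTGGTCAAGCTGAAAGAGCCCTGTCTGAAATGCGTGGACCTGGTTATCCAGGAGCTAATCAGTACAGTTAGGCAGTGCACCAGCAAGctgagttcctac
Dnm2 downstream exon, chr9:21480407-21480545, plus strand: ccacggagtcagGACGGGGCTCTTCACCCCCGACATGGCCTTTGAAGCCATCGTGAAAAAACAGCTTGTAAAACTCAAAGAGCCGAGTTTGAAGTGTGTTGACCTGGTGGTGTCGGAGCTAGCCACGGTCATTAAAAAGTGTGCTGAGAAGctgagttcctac

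The VASE exon of Ncam1, 30 bases in an immunoglobulin domain, and exon 11a of Enah, 63 bases used in epithelia, complete the set.
Ncam1 VASE exon, chr9:49550540-49550569, minus strand: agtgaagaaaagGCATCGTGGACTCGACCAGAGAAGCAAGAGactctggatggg
Enah epithelial exon, chr1:181911597-181911659, minus strand: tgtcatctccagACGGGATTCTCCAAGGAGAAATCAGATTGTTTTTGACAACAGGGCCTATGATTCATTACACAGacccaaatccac

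All 8 genes were detected in both libraries, at a gene level of at least 1 TPM (transcripts per 1000000 transcripts, a value per length). Of all 43346 gene rows, 8928 reached this level in replicate 1 and 9813 in replicate 2. The same level counts as detected in the gene lists below, and these shares stand beside their counts. Cdc42 was the highest, at 457.7 TPM in replicate 1 and 377 in replicate 2. Clta followed at 204.5 and 93.3 TPM and Aplp2 at 154 and 136. The order of these 2 neighbours is within their spread, at means of 149 ± 78.7 and 145 ± 13.04 TPM (SD, n = 2). Dnm2 at 52.7 and 31.6 TPM, App at 59.2 and 24.2, Ncam1 at 31.8 and 40.3 and Cltb at 26.2 and 37.1 form a group whose order differed between the libraries. Enah had the lowest mean, 17.8 ± 12.3 TPM (SD, n = 2), from 26.5 and 9.13. Of the 8, 6 were higher in replicate 1, and Ncam1 and Cltb were higher in replicate 2.

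**Figure D1:**
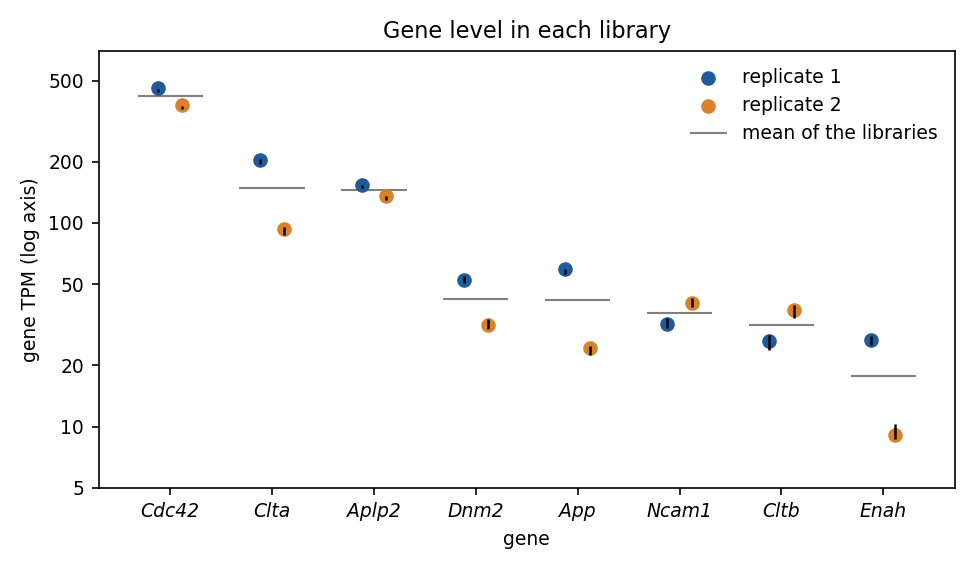
Gene level (TPM, log axis) of each member in replicate 1 (blue) and replicate 2 (orange); black lines are the deposited interval of the posterior mean and grey lines the mean of the libraries. Cdc42 lies highest in both, and the points of Clta, App and Enah lie at least 2-fold apart. The black lines do not bound the plotted TPM, and the points of Cdc42 and Aplp2 lie above their lines.

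Between libraries, 3 of the 8 members differed at least 2-fold on the log2(TPM + 1) scale, and all 3 were higher in replicate 1. These were Enah, App and Clta, at differences (replicate 2 minus replicate 1) of -1.44, -1.26 and -1.12. Of all 7680 genes with a mean of at least 10 TPM, 51.3% differed this much and 24.7% did so with replicate 1 higher. The members' median absolute difference was 0.60, against 1.04 for all those genes. The smallest differences belonged to Aplp2 at -0.18 and Cdc42 at -0.28. The deposited intervals of the libraries did not overlap for any of the 8 members, nor for 89.9% of all these genes. The intervals cover read assignment and counting within a library, and for most genes they did not span the difference between libraries. They belong to the posterior mean, so the TPM can lie outside them, as for Cdc42 and Aplp2 in both libraries.

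The use of each exon was taken as the TPM of transcripts that hold it, in percent of the TPM of those that hold it or skip it while spanning it. The tables hold transcripts of both kinds for 17 of the 19 exons or exon forms examined. The transcript models that these percentages rest on differ in more than the named exon, and where they do this is given beside the value.

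**Figure D2:**
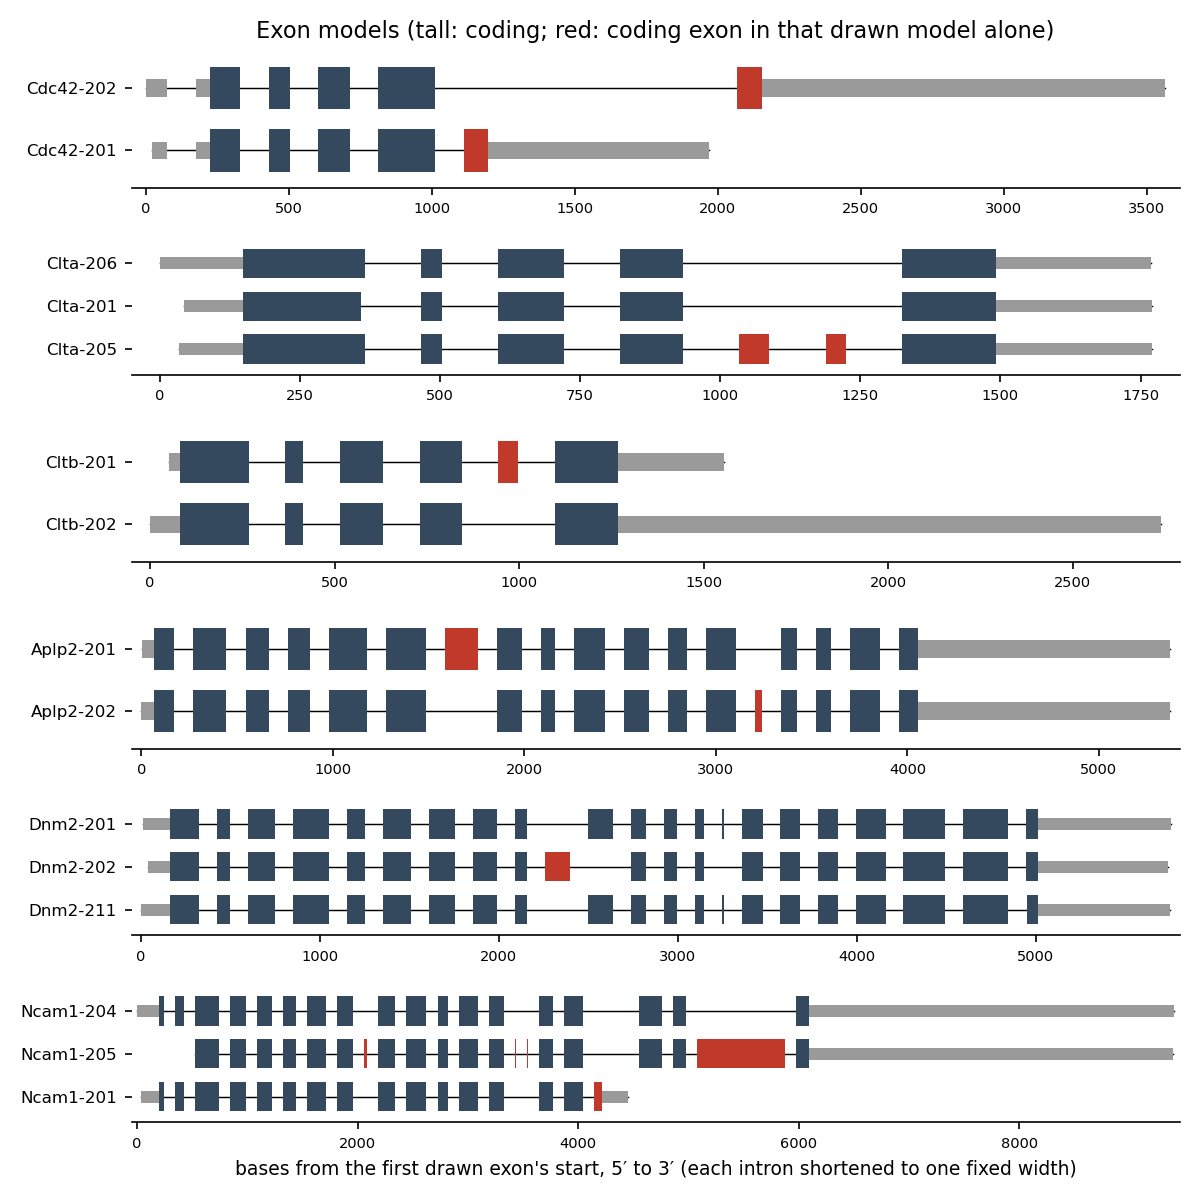
Exon models of the transcripts that carry the results, drawn 5′ to 3′ with exons to scale in bases and each intron shortened to one width; tall blocks are coding, low grey blocks untranslated, and red marks coding exons found in that drawn model alone. The models of Cdc42 and Cltb differ in their 3′ ends as well as in the named exon, and Ncam1-205 carries several alternative exons at once.

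Cdc42 (ENSMUSG00000006699.13, chromosome 4, 137319696 to 137357720, minus strand) encodes a small GTPase that controls cell polarity and actin. It ends in one of its alternative last exons, and the form that uses the upstream one is the form enriched in brain. The downstream form, Cdc42-202, held 88.58% of the gene's TPM in replicate 1 and 97.43% in replicate 2. The upstream form, Cdc42-201, was at 52.3 and 9.68 TPM, which is 11.4% and 2.57% of the gene. The brain-enriched form was therefore the minor one in both libraries, 5.40-fold higher in replicate 1, while the downstream form stood close together at 405 and 367 TPM. These forms are well separated by reads, with 858 bases found only in Cdc42-201 and 1518 only in Cdc42-202, and they held 1579 and 289.6 counts for the first and 18228 and 16365 for the second.

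Enah (ENSMUSG00000022995.12, chromosome 1, 181896384 to 182019990, minus strand) encodes Mena, an actin regulator of growth cones and leading edges. Most of its TPM fell to models annotated as retained introns, at 84.4% in replicate 1 and 58.4% in replicate 2. The leading one, Enah-208, is a single stretch of 1890 bases and was at 15.1 and 5.31 TPM from 605 and 211 counts. It shares no base with the main coding model, Enah-211, but contains all 63 bases of exon 11a. Shares of TPM are per length, and Enah-211 has 11229 bases. Counted in reads, Enah-211 held 1006 of the gene's 2568 counts in replicate 1 and 936 of 1150 in replicate 2. The coding model thus held most of the counts in replicate 2, though the retained-intron models held most of the TPM. A retained-intron model led in both libraries for 148 of 4352 genes with 2 or more transcripts and at least 5 TPM in both (3.4%). Enah-213, another such model, had 952 counts in replicate 1 and 3 in replicate 2.

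The coding models of Enah summed to 4.12 and 3.79 TPM, so the coding level was 1.09-fold apart where the gene level was 2.90-fold apart. The gap in the gene level thus lay in the retained-intron models, at 22.4 and 5.33 TPM. The coding TPM was almost all Enah-211, which has the short form of the alternative exon and had 1006 and 936 counts. Models with the large neural exon of 843 bases held 5.11 counts in replicate 1 and 0 in replicate 2, or 1.94% and 0% of the spanning TPM. Exon 11a had 0 counts among spliced models in both, and 3 counts would be 0.297% and 0.321% of the 1011 and 936 spanning counts. Only reads over this exon or its junctions can show it, so these shares are not upper limits on its use. Reads inside exon 11a could also have been assigned to Enah-208, and how these tables divided such reads was not tested. Of 7 genes listed for epithelium, Cdh1, at 15.2 and 10.98 TPM, and Krt8, at 73.9 and 2.59, were at 1 TPM or more in both libraries. All 7 summed to 89.0 and 27.4 TPM, Epcam and Esrp2 were at 0 counts in both, and Esrp1, which promotes epithelial exons, was at 0 and 13.8 TPM.

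Clta (ENSMUSG00000028478.14, chromosome 4, 44004452 to 44032846, plus strand) and Cltb (ENSMUSG00000047547.10, chromosome 13, 54592401 to 54611344, minus strand) encode the light chains that stud the clathrin coat. In neurons both chains carry inserts near the C-terminal end. No Clta transcript with either insert held a count in any library. Of the 4486 and 1980 counts in the gene, 3 counts would be 0.0669% and 0.152%. Only reads over an insert or its junctions can show it, so these shares are not upper limits on its use. The deposited upper limits of the models with the longer insert summed to 1.49 and 1.73 TPM, against 204.5 and 93.3 TPM for the gene.

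In Cltb, by contrast, the model with the insert held most of the TPM. The model that holds it, Cltb-201, was at 21.3 TPM in replicate 1 and 30.2 in replicate 2, and the model without it, Cltb-202, at 4.86 and 6.93. The insert was thus in 81.4% and 81.3% of the spanning TPM, a mean of 81.4% ± 0.0745 (SD, n = 2). The transcript shares of Cltb lay closer together than those of the other members with several transcripts, although Cltb had the fewest counts of the 8 genes, 659 and 927. These models also differ at the 3′ end. Cltb-202 has 1236 bases of its own, most of them in a last exon of 1642 bases against 458, while Cltb-201 has only the 54 bases of the insert, so the split rests largely on reads over the long 3′ end. Counted in reads and not per length, the insert model held 65.5% on average. Cltb-201 is the only model with the insert, so use of the insert and use of the shorter 3′ end cannot be told apart.

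Clta differed between libraries in another place. All of its TPM in replicate 1 was assigned to Clta-206, whose first coding exon is longer by 6 bases. In replicate 2 the TPM was split into 51.6% for the longer end and 48.4% for Clta-201 with the shorter one. Clta-201 was at 0 TPM in replicate 1 and 45.2 in replicate 2, from 0 and 934.2 counts. The alternative ends keep the frame. Clta-201 has 1 base of its own and Clta-206 has 49, so only reads at the start and over that splice junction can separate them.

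Dnm2 (ENSMUSG00000033335.13, chromosome 9, 21424908 to 21507759, plus strand) encodes the broadly expressed dynamin, which pinches clathrin-coated vesicles off the membrane. Both exchangeable exons were in use. The downstream one was in 42.8% of the spanning TPM in replicate 1 and 68.5% in replicate 2, and the upstream one in 57.2% and 31.5%. Which exon led therefore changed between the libraries. The leading transcript was Dnm2-202, with the upstream exon, at 30.2 TPM in replicate 1 against 8.76 in replicate 2. In replicate 2 it was Dnm2-201, with the downstream exon, at 19.03 TPM against 7.12.

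A short Dnm2 exon of 12 bases followed the downstream exon, at 42.8% and 72.2%. The tables' main models tie these exons together, as Dnm2-201 and Dnm2-211 hold both and Dnm2-202 holds neither, so the pair gives one measurement and not 2, apart from the retained-intron model Dnm2-207 of replicate 2, which holds the short exon. Dnm2-211, which starts its last coding exon 3 bases later, was at 15.4 TPM in replicate 1 and 0 in replicate 2. It has 13 bases not found in Dnm2-201, and Dnm2-201 has 5 not found in it. How reads were divided between these models is uncertain, and the deposited interval of Dnm2-201 in replicate 1 runs from 2.62 to 10.2 TPM. Dnm2-207 was at 0 and 3.75 TPM. Dnm2 shares 207 exon bases with Tmed1 on the other strand, which had 2030 and 1767 counts. Whether the counting used strand is not given in the sources used here.

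Ncam1 (ENSMUSG00000039542.11, chromosome 9, 49502136 to 49798925, minus strand) encodes a neural adhesion molecule whose forms differ in how they are held in the membrane. Ncam1-204, the transmembrane form with the short cytoplasmic part, held 91.43% of the TPM in replicate 1 and 99.57% in replicate 2, at 29.1 and 40.1 TPM. The form with the long cytoplasmic exon of 801 bases, Ncam1-205, was at 2.73 and 0.17 TPM from 394.3 and 24.9 counts. That is 8.58% and 0.422% of the spanning TPM, so most of the minor form's counts came from replicate 1 while the main form was higher in replicate 2. Ncam1-205, whose model is cut short at the 5′ end, is also the only one in the tables with the VASE exon, which is known to increase as the brain matures, and it holds the 15-base exon of the muscle-specific domain. These 3 exons therefore received the same percentage. Of the 849 bases that Ncam1-205 has and Ncam1-204 lacks, 801 lie in the long cytoplasmic exon, 30 in the VASE exon and 15 in the muscle-specific exon. Most sequence that can set Ncam1-205 apart is thus in the long exon. How many reads came from each exon is not given, so the percentage says little about the smaller exons. The model with the GPI-anchor exon, Ncam1-201, had 0 counts in both libraries, and 3 counts would be 0.0703% and 0.0564% of the counts. Only reads over the GPI-anchor exon or its junction can show it, so these shares are not upper limits on its use.

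App (ENSMUSG00000022892.10, chromosome 16, 84949685 to 85173766, minus strand) encodes the amyloid precursor protein. It has 1 transcript row in each table, App-201, which lacks the Kunitz exon and the OX2 exon and codes for 695 residues, the form that neurons favour. Its 100% share in both libraries follows from there being a single row and is not a measure of exon skipping. Reads inside the skipped exons would not be counted by this model. The level of App was 59.2 TPM from 4012 counts in replicate 1 and 24.2 TPM from 1625 counts in replicate 2.

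Aplp2 (ENSMUSG00000031996.12, chromosome 9, 31149557 to 31211815, minus strand) encodes the closest relative of App. Its transcripts changed rank between the libraries at nearly the same gene level. Aplp2-201, with the Kunitz exon, was at 60.0 TPM in replicate 1 and 116 in replicate 2, and Aplp2-202, without it, at 94.3 and 19.8. The Kunitz exon was thus in 38.9% and 85.4% of the TPM. The exon near the membrane, whose skipping creates a glycosaminoglycan attachment site, had the complement, 61.1% and 14.6%. The tables hold only these 2 models, each with one of the exons, so a transcript with both or with neither would be forced into one of them. Their deposited lengths differ by 132 bases, exactly the difference of the exons. The counts behind them were 4777 and 9160 for Aplp2-201 and 7233 and 1505 for Aplp2-202. These reads were amplified from as much RNA as 1 cell holds and are not independent molecules. Their number therefore does not show how well the split was sampled.

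**Figure D3:**
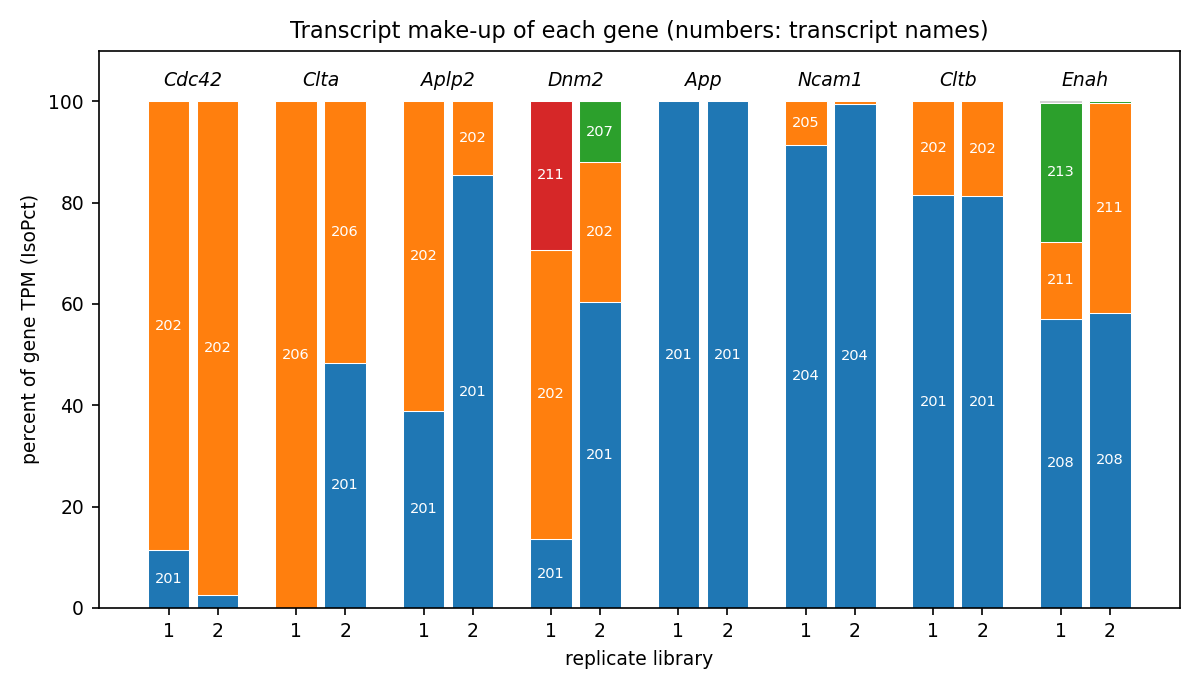
Percent of each gene's TPM held by its transcripts in replicates 1 and 2, stacked; numbers on the blocks are the transcript names after the gene symbol, and colours are not shared between genes. Cltb keeps the same make-up in both libraries, and the leading block changes in Aplp2 and Dnm2.

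Across the 7 members with several transcripts, 5 had the same leading transcript in both libraries and Aplp2 and Dnm2 did not. Of all 4352 genes with 2 or more transcripts and at least 5 TPM in both libraries, 65.6% kept theirs, so the members' share is near that of all genes. The part of a gene's TPM that sat in different transcripts in the libraries was 0.10 percentage points for Cltb, 8.14 for Ncam1, 8.85 for Cdc42, 27.5 for Enah, 46.6 for Aplp2, 48.4 for Clta and 58.7 for Dnm2. The members' median was 27.5 points and that of all these genes 23.5, with quartiles of 4.03 and 55.7. Over all genes this measure was smaller at high levels, with a median of 42.0 points for a mean of 20 to 50 TPM and 11.3 points from 100 TPM up. Of the members above 100 TPM, Clta and Aplp2 lay over the second value and Cdc42 under it. Of those at 20 to 50 TPM, Dnm2 lay over the first value and Cltb and Ncam1 under it. Among all 4352 genes, 70.3% had a smaller value than Clta and 69.2% a smaller one than Aplp2.

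**Figure D4:**
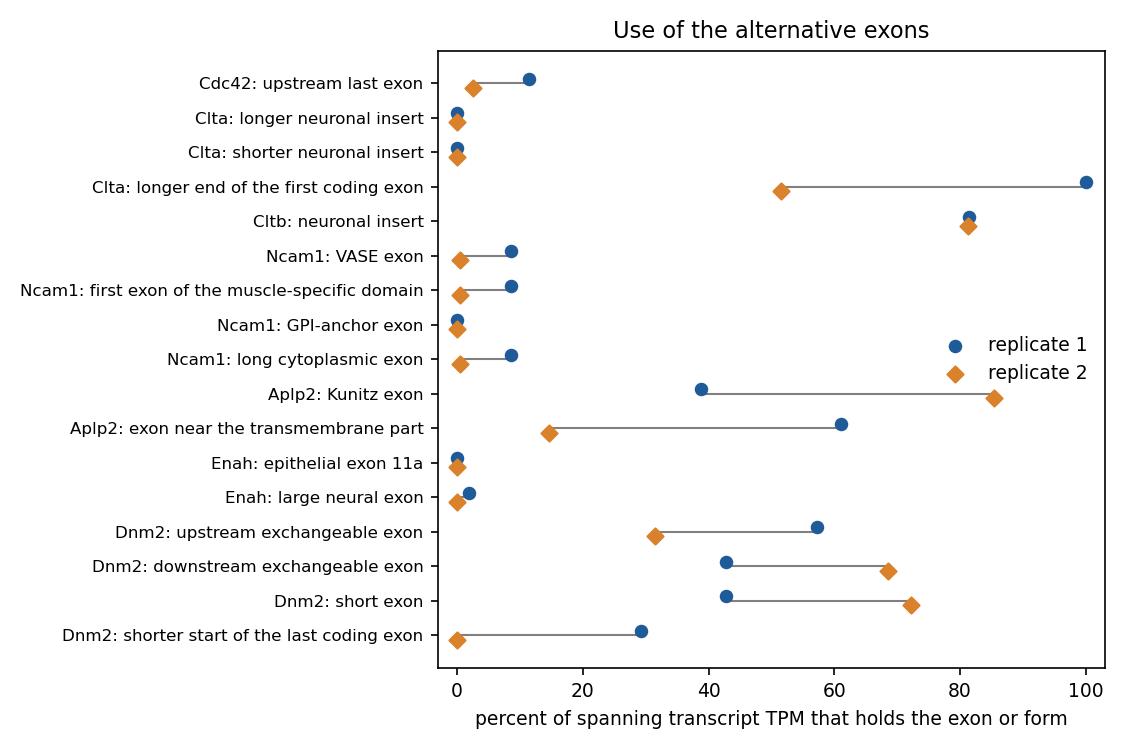
Percent of the spanning transcript TPM that holds each alternative exon or form, in replicate 1 (circles) and replicate 2 (diamonds), joined by a line. The Cltb insert is at 81.4% and 81.3%, the Clta inserts are at 0% in both, and the Aplp2 and Dnm2 exons lie far apart.

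**Figure D5:**
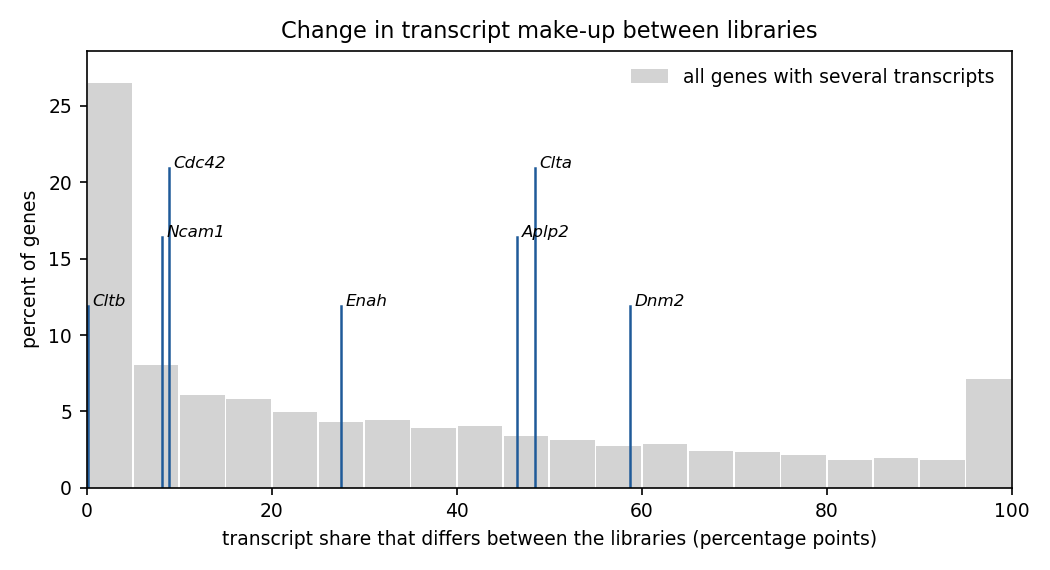
Percent of 4352 genes (grey bars, bins of 5 points) by the transcript share that differs between the libraries, with the 7 members that have several transcripts marked by blue lines. The members range from 0.10 points for Cltb to 58.7 for Dnm2.

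Most of the listed splicing regulators were detected at 1 TPM or more. Of 27 listed, 22 were detected in both libraries, 2 in one and 3 in neither, and 6 of the 16 with a mean of at least 10 TPM differed 2-fold, against 51.3% of all genes. Ptbp1 was at 207 and 165 TPM, Elavl4, a neuronal RNA-binding protein gene, at 125 and 198, and Ptbp2 at 192 and 36.6. Ptbp2 was the regulator of these 3 with a gap above 2-fold, and it was higher in replicate 1. Several regulators were low or absent. Rbfox1 and Rbfox3 were below 1 TPM in both libraries, while Rbfox2 was at 26.6 and 15.9. Nova1 was at 1.38 and 2.17 TPM, Nova2 at 22.1 and 6.56 and Srrm4 at 2.33 and 4.06. Elavl2 was at 57.5 and 68.2 TPM and Elavl3 at 17.4 and 2.30. Of the 22 regulators detected in both, 11 were higher in replicate 1 and 11 in replicate 2. Any link of the regulators with the members' exons was not tested. Of the neuronal markers listed, 7 of 11 were detected in both, with a summed level of 1197 and 996 TPM, and of the progenitor markers 9 of 10, with 1497 and 2591. Markers of glia and myelin were detected in both for 0 of 7, with 12.8 and 5.18 TPM. Of other cells in the pools, blood markers summed to 31166 and 37330 TPM (6 of 7 detected in both), mesenchyme and pericyte markers to 452 and 315 (4 of 6), endothelial markers to 143 and 116 (5 of 6) and myeloid markers to 115 and 26.4 (2 of 5). The part of these cells in the members' levels was not tested.

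The partners of the clathrin and dynamin members were detected in both libraries for 15 of 23 genes. The heavy chain gene Cltc was at 90.3 and 111 TPM, the adaptor subunit genes Ap2m1 at 556 and 549 and Ap2s1 at 116 and 259. Of 13 with a mean of at least 10 TPM, 6 differed 2-fold, against 51.3% of all genes. Genes of the amyloid precursor family and its secretases were detected in both for 9 of 16, and 6 of 10 at that level differed 2-fold, beside the same 51.3%. The gamma-secretase subunit genes Psenen, at 100 and 104 TPM, and Ncstn, at 165 and 1.21, and the App-binding adaptor gene Apbb2, at 82.9 and 86.2, led the list.

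Of 20 genes around Cdc42 and Ena/VASP, 16 were detected in both and 9 of 13 at a mean of at least 10 TPM differed 2-fold, where 51.3% of all genes at that level did. The median difference of those 13, replicate 2 minus replicate 1, was 0.18 on the log2 scale. A list around neural adhesion genes of the immunoglobulin family also holds St8sia2, St8sia4 and Gfra1, which are not of that family. Its genes were detected in both for 4 of 11. The highest of those were Alcam at 40.7 and 30.1 TPM, Cntn2 at 3.15 and 23.2 and St8sia2, which adds polysialic acid to Ncam1, at 7.42 and 13.8. Of the 4 that were detected in one library alone, Nfasc had the highest level, 0.88 and 37.9 TPM, and was named after its values were seen. Of 4 genes of this list with a mean of at least 10 TPM, 2 differed 2-fold (51.3% of all genes).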

How the data were processed

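The authors deposited a gene and a transcript table per library, with 28639678 and 28948074 counts in all. Per the file headers these hold expected counts (estimated reads), TPM, FPKM and the percent of a gene's TPM in each transcript. The deposited posterior SDs and interval limits were read as a score, since their level is not given. The deposited text names mm10 and annotation release M4. Which aligner and quantifier made them is not given in the sources used here. Effective lengths are 99 bases below lengths. TPM covers all rows, spike-ins included (8.44% and 6.56% of TPM).

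Names, exons, transcript types and sequences came from GENCODE release M21 on the same assembly. Of 51 member transcripts, 48 have the same length there, and App-201, Aplp2-201 and Aplp2-202 differ. Python 3.11.15 and pandas 2.3.3 were used. Every member is described, with transcripts of at least 5% in a library, and, for pathway lists, the 3 genes of highest mean TPM detected in both libraries (those of the list around Cdc42 are not reported here); marker lists are given as counts and sums, with single genes for epithelium alone. Further Rbfox, Nova, Elavl and Srrm4 genes were named because the background names these factors. Members and lists were chosen with earlier results of these data known. The share measure, leading transcripts and exon percentages were tested on simulated counts that were already assigned to their transcripts. That checks the calculation and not how reads are divided between models that share sequence. With 2 libraries no test was made. Floors take 0 counts as up to 3 of the counts of all spanning models. Only reads over the exon can show it, so floors are not upper limits on exon use. Reads are not independent molecules, so floors cover counting error only.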

Additional observations from a re-analysis of the deposited data

How the results depend on the processing

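All 32 alternative gene levels stayed within 1 SD of the mean (a single library of 2 always does), and the count of members at least 2-fold apart stayed at 3 with a pseudocount of 0.1, counts scaled to library size, posterior means or TPM over gene rows alone. Of 85 alternative exon percentages, 78 stayed within 1 SD. Here too the values of a single library always do. Those from protein-coding transcripts alone equalled the main value, except for the Dnm2 short exon (55.6% against 57.5%). The count of 78 therefore says little about how far the percentages depend on the processing. With posterior mean TPM, which gives every model some weight, the mean was 0.432% and 0.440% for the longer and shorter Clta insert, 79.9% for the Cltb insert, 0.179% for the Ncam1 GPI-anchor exon, 0.373% for the Enah epithelial exon and 2.57% for its large neural exon. With expected counts the Cltb insert was at 65.5%. At a gene TPM of at least 50 only 3 members remained for the leading transcript and 2 of them kept it, with a median moved share of 46.6 points against 13.5 for all 1615 genes. The members' median was 27.4 points with posterior means, and that of all genes 23.0 points then and 25.9 points at a TPM of at least 1. No paired analysis was possible because there is one group. The exon percentages rest on M21 exons and on the models in the tables, and each library has no repeat.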
